A study of Mus musculus with 6 samples.

Results

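The 8 transcription factors described here, *Pax6*, *Six3*, *Rax*, *Lhx2*, *Sox2*, *Sox8*, *Sox9* and *Hes1*, are genes of retinal progenitor cells, most of which remain on in Müller glia, and were chosen by gene symbol from a count table of 31169 genes. All 8 have 1 row in the table, and all 8 passed the filter on low counts, as did 17707 genes in total. The counts come from poly(A) RNA of whole retina of male C57BL/6 mice that received an injection into the anterior chamber of the eye at 1 month of age and were killed 4 weeks later, at 2 months. In 3 retinas the injection was saline, and in the other 3 it was a suspension of microbeads 15 μm in diameter, which raises intraocular pressure (IOP). Both groups share the strain, the age and an injected eye, and no uninjected retina is among the libraries. The question is whether transcription of these factors differs between retina of microbead- and saline-injected eyes. Since whole retina was sequenced, a lower level can mean fewer cells of a type or less RNA per cell, and these cannot be told apart.

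Eye field factors of the paired box, sine oculis and LIM homeodomain families specify the optic vesicle and keep retinal progenitors dividing, and SOX factors of the SOXB1 and SOXE groups together with the Notch effector *Hes1* hold progenitors undifferentiated and favour a glial fate. In the adult mouse retina, Müller glia, the radial support cells that span the retina, retain *Sox2*, *Sox8*, *Sox9*, *Lhx2*, *Rax*, *Hes1* and some *Pax6*. *Pax6* is strongest in amacrine, ganglion and horizontal cells, *Six3* in inner retinal neurons, and *Rax* is also present in photoreceptors.

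The saline libraries held 36085737, 46481382 and 37546884 counts and the microbead libraries 19834366, 13574949 and 15647739, a ratio of 2.40 between the medians. The smallest count of any of the 8 genes in a library was 217 (*Hes1* in microbead replicate 3), with a counting error of 6.79%. With every library thinned to the smallest total, 3 of the 8 passed the threshold used below in place of 4. Of all genes tested, 13.4% then passed in place of 12.8%. Genes of the mitochondrial genome took 3.19, 3.30 and 3.57% of the counts in saline retina and 10.7, 8.90 and 9.97% in microbead retina. The library identifiers in the sample descriptions form 1 series for saline and another for microbead, while the sample titles run on across both groups, so that a difference between the series of identifiers cannot be told apart from that between injections.

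The saline retinas were not alike. Saline replicate 3 held 274.0 CPM (counts per 1000000 of the scaled library size) of lens genes, against 23.6 and 2.45 CPM in saline replicates 1 and 2 and 1.29 to 3.05 CPM in the microbead libraries. The pigment epithelium genes summed to 13.5, 56.7 and 242.0 CPM in the saline retinas and to 129.0, 108.0 and 118.2 CPM in the microbead retinas. Saline replicate 1 was low in the 10 ganglion cell markers (329 CPM, the others 969 and 1249 CPM) and high in the 15 gliosis genes (1814 CPM, the others 447 and 797 CPM). Saline replicate 3 was also the highest saline library for 6 of the 8 factors, and the fold changes of the 8 are given without it below where that moves them.

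Of the 8 factors, 4 passed an adjusted p-value of 0.05 in edgeR's quasi-likelihood test and all 4 were lower after microbead injection (*Sox2*, *Sox9*, *Rax* and *Sox8*), while 0 were higher. Among all 17707 genes tested, 12.8% passed, 6.46% higher and 6.31% lower. The groups did not overlap for 7 of the 8, all but *Lhx2*, and for 37.8% of all genes tested. The median log2 fold change of the 8 was -0.79, and that of all genes tested was -0.03. The 8 genes did not move one way: *Pax6* and *Six3* were higher in every microbead library than in any saline library, without passing the threshold, and the summed level of all 8 was 799.6 ± 130.0 CPM in saline and 829.4 ± 35.9 CPM in microbead retina (SD, n = 3 each). The sum of the 3 SOX factors was 155.6 ± 61.2 CPM and 70.1 ± 6.12 CPM, and that of the 4 eye field factors 591.5 ± 47.8 CPM and 742.1 ± 31.2 CPM, in saline and microbead retina. Without saline replicate 3, *Sox2* and *Rax* passed, with 1480 of all genes (8.42%) past the threshold against 2261 (12.8%) with all 6 libraries. Without saline replicate 2, *Sox2* and *Sox9* passed, with 293 of all genes (1.68%). Without microbead replicate 1, 2 or 3, 0 of the 8 passed, and the number of all genes was 748, 768 and 46 (3.89, 4.01 and 0.238% of those tested).

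**Figure D1:**
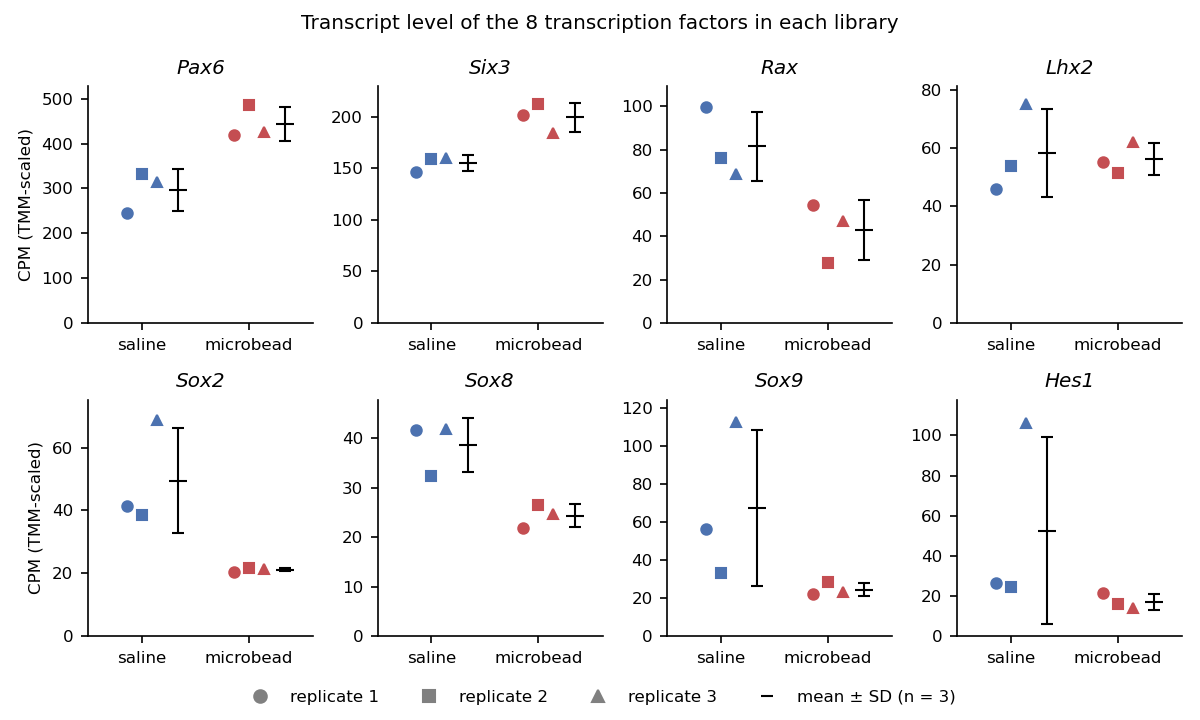
Level of each transcription factor (CPM of the TMM-scaled library size, linear axis from 0) in the 3 saline and 3 microbead libraries, with symbols for the replicate and bars for the mean ± SD (n = 3). *Pax6* and *Six3* lie higher in all microbead libraries, *Lhx2* overlaps, and the other 5 lie lower, with saline replicate 3 far above its group for *Sox9* and *Hes1*.

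Among the eye field factors, *Pax6* is the paired box gene needed for eye formation. Its level was 244, 331 and 314 CPM in the saline retinas and 419, 486 and 425 CPM in the microbead retinas. All microbead values lie above all saline values, and saline replicate 1 is the lowest. The log2 fold change of *Pax6* was 0.58 (standard error 0.18, 95% interval 0.17 to 0.99), and its adjusted p-value in edgeR, 0.0640, did not pass the threshold. DESeq2 (adjusted p = 0.0299) and an offset for GC content and length in edgeR (log2 fold change 0.74, adjusted p = 0.0147) placed *Pax6* past it, and no fit that left out a library did, with values from 0.46 to 0.66.

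*Six3*, a sine oculis family homeobox gene that represses Wnt signalling in the anterior neural plate, had 146.5, 159 and 160 CPM in saline and 201, 212 and 185 CPM in microbead retina. These groups were the tightest of the 8 in saline relative to their mean, and did not overlap. The log2 fold change of *Six3* was 0.36 (standard error 0.16, 95% interval 0.01 to 0.71; adjusted p = 0.147 from edgeR), and none of the 11 alternatives with all 6 libraries or the 6 with 1 left out placed it past the threshold. *Pax6* lies on mouse chromosome 2 from 105668900 to 105697364 and *Six3* on chromosome 17 from 85613608 to 85629302, both on the forward strand (GRCm38, GENCODE vM21).

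*Lhx2*, a LIM homeobox gene that acts in the optic vesicle and in Müller glia, measured 45.9, 54.0 and 75.2 CPM in saline and 55.3, 51.4 and 62.2 CPM in microbead retina. Here the groups overlap fully, with all microbead values inside the saline range. The log2 fold change was -0.05 (standard error 0.21), and its 95% interval, -0.52 to 0.42, bounds what these libraries could show. Its sign turned without saline replicate 3 (0.17) and without microbead replicate 2 (0.03). *Lhx2* lies on chromosome 2 from 38339281 to 38369733 on the forward strand.

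*Rax*, the retina and anterior neural fold homeobox gene, was the eye field factor that fell. It measured 99.6, 76.1 and 68.7 CPM in the saline retinas and 54.3, 27.5 and 46.9 CPM in the microbead retinas. Saline replicate 3, the highest of its group for 6 other factors, is the lowest saline library for *Rax*, and microbead replicate 2 is the lowest of all. The level fell by 47.3% (log2 fold change -0.92 with a standard error of 0.26, adjusted p = 0.0477 from edgeR). The call is close to the threshold: adjusted p was 0.0513 with RLE scaling and 0.0728 with the offset for GC content and length in edgeR, and of the 6 fits with a library left out only that without saline replicate 3 kept it (-1.03), while the others gave -0.76 and -0.97 (without saline replicates 1 and 2) and -1.13, -0.67 and -0.999 (without microbead replicates 1, 2 and 3).

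The 3 SOX factors, which carry a high mobility group box that bends DNA, all fell. *Sox2*, a SOXB1 factor that keeps neural progenitors and Müller glia in their state, measured 41.3, 38.4 and 68.6 CPM in saline and 20.6, 21.7 and 21.3 CPM in microbead retina. The microbead values are almost the same in all 3 retinas, and the lowest saline value lies well above them. *Sox2* fell by 57.1% (log2 fold change -1.22, standard error 0.24, 95% interval -1.75 to -0.69, adjusted p = 0.01745 from edgeR). It was the steadiest call of the 8: it passed under each of the 11 alternatives with all 6 libraries, and with any 1 saline library left out, including saline replicate 3 (-0.91, adjusted p = 0.0218 from edgeR). Leaving out microbead replicate 1, 2 or 3 gave log2 fold changes of -1.21, -1.22 and -1.23 and adjusted p-values of 0.0578, 0.0573 and 0.0890 from edgeR.

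*Sox9*, a SOXE factor needed for Müller glia to form, measured 56.7, 33.3 and 112.8 CPM in saline and 22.03, 28.4 and 23.1 CPM in microbead retina. The saline values spread more than 3-fold, with saline replicate 2 only a little above microbead replicate 2, although the groups do not overlap. *Sox9* fell by 63.7% (log2 fold change -1.46 with a standard error of 0.38, adjusted p = 0.0373 from edgeR). Without saline replicate 3 the log2 fold change was -0.88 and the adjusted p-value 0.0573 from edgeR, and the call was also lost without microbead replicates 1 (-1.40), 2 (-1.57) and 3 (-1.44) and with limma-voom (adjusted p = 0.0695).

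*Sox8*, the second SOXE factor, had 41.6, 32.3 and 41.8 CPM in saline and 21.9, 26.5 and 24.8 CPM in microbead retina. Saline replicate 3 does not stand apart for *Sox8*, unlike for *Sox9*. Its fall was the smallest of the 4 that passed: it fell by 36.8% (log2 fold change -0.66 with a standard error of 0.18, adjusted p = 0.0444 from edgeR). The call was lost in each of the 6 fits with a library left out, where log2 fold changes ran from -0.78 (without saline replicate 2) to -0.59 (without microbead replicate 1), and with upper-quartile scaling (adjusted p = 0.0562), libraries thinned to the smallest total (adjusted p = 0.0545 from edgeR) and limma-voom (adjusted p = 0.0534).

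*Sox2* is a single exon on chromosome 3 from 34650405 to 34652461, *Sox9* lies on chromosome 11 from 112782224 to 112787760, both on the forward strand, and *Sox8* on chromosome 17 from 25565892 to 25570686 on the reverse strand. RefSeq windows of the 250 bases before an annotated start (GRCm38.p6) were examined for 5 of the 8 genes, and not for *Rax*, *Sox9* or *Hes1*. Those of *Sox2* and *Sox8*, which fell, and of *Pax6* and *Six3*, which were higher, are shown, with capitals for letters that match a searched motif. The motifs, searched on both strands, were TGGGAA of the Notch effector RBPJ, CACNAG (the N box bound by HES factors), ACAATG and ACAAAG of SOX factors, TAATTA of homeodomain factors and GGGCGG (the GC box), and no matches overlap in these windows. *Pax6* has 2 such windows, of which the second is shown.
Sox2 (chr3:34649745-34649994, forward): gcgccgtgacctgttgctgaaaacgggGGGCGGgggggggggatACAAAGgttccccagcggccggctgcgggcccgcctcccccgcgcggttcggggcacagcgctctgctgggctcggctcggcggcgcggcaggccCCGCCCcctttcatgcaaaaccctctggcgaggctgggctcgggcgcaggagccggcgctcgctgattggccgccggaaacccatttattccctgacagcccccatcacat
Sox8 (chr17:25570687-25570936, reverse): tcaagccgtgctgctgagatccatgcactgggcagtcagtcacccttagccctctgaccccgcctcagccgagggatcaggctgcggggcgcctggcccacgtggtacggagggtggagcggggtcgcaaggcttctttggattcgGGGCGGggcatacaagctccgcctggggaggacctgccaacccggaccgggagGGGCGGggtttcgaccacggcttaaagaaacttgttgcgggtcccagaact
Pax6 (chr2:105682213-105682462, forward): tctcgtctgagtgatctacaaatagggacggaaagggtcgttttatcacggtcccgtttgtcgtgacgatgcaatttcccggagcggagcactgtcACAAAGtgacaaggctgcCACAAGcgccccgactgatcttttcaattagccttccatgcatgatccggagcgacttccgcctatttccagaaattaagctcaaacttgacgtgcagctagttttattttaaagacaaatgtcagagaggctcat
Six3 (chr17:85620584-85620833, forward): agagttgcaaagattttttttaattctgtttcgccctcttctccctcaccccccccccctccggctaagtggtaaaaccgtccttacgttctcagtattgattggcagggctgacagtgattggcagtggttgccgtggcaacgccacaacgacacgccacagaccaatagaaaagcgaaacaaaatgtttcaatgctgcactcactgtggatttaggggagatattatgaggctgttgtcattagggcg
The *Sox2* window holds 2 GC boxes and 1 ACAAAG, the *Sox8* window 2 GC boxes, and the second *Pax6* window 1 ACAAAG and 1 N box, while the *Six3* window and the first *Pax6* window hold 0 matches. Of 32851 windows of this length in RefSeq, 32.7% hold the GC box, 16.5% ACAAAG, 10.7% ACAATG, 36.7% the N box, 21.6% TGGGAA and 4.84% TAATTA. The windows of *Lhx2*, which are not shown, hold 4 GC boxes and 1 TGGGAA in the first and 1 TGGGAA in the second. A match describes the letters and not a bound site.

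The SOX genes resemble one another in the box that binds DNA, and a read of one matches another equally well where the copies are identical over its length. None of the 100-base stretches in transcripts of any of the 8 genes, read in the direction of the transcript, occurs in another gene's transcripts. Exons on the opposite strand, which overlap some of the 8, and matches with differing letters were not part of that search. The longest coding stretch that *Sox9* shares with *Sox10* has 44 bases and lies in exon 1 of *Sox9*, and the longest that *Sox2* shares with *Sox3* has 32 bases.
Sox9 and Sox10 (chr11:112782831-112782874, forward): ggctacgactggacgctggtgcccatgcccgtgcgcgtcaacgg
Sox2 and Sox3 (chr3:34650677-34650708, forward): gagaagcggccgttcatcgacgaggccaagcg
*Sox10* was at most 0.770 CPM and *Sox3* at most 0.571 CPM in any library, against at least 22.03 CPM for *Sox9* and 20.6 CPM for *Sox2*. *Sox1* and *Sox21*, which also share 31-base stretches with *Sox2*, were at most 0.0266 and 0.0856 CPM.

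*Hes1*, a basic helix-loop-helix repressor that Notch signalling turns on, lies on chromosome 16 from 30064384 to 30067796 on the forward strand. Its level was 26.4, 24.8 and 106.2 CPM in saline and 21.6, 15.9 and 14.1 CPM in microbead retina. A single library, saline replicate 3, is about 4 times as high as the other saline retinas, and the rest of the saline values lie just above the microbead values. The log2 fold change of -1.61 was the largest of the 8 and also the least precise (standard error 0.52, 95% interval -2.77 to -0.45), and its adjusted p-value in edgeR was 0.0689. Without saline replicate 3 it was -0.58 (adjusted p = 0.150 from edgeR), and without saline replicate 1 it was -1.93 and passed (adjusted p = 0.0238 from edgeR).

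**Figure D2:**
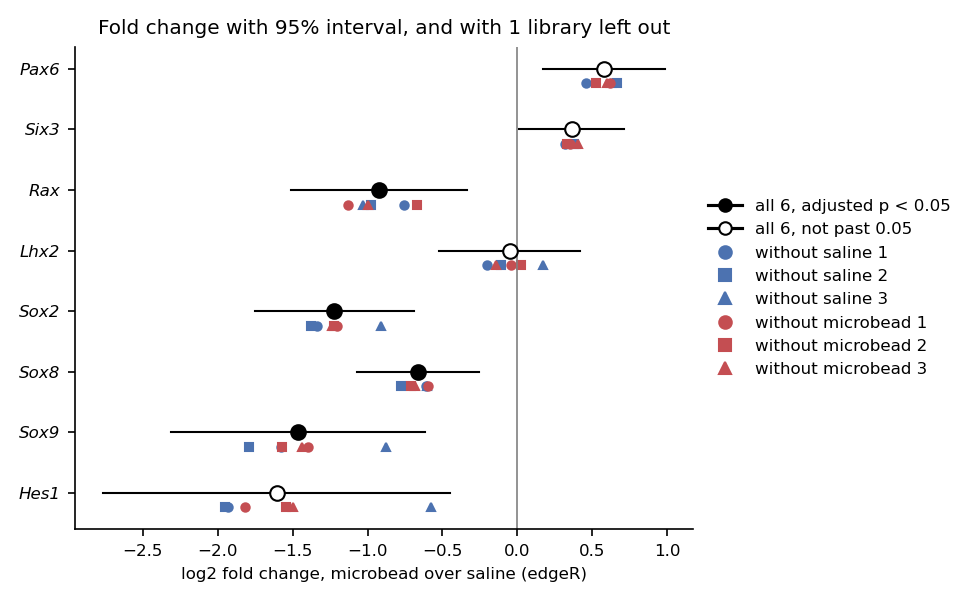
Log2 fold change of microbead over saline retina from edgeR for each factor, with 95% intervals (black, filled where the adjusted p-value was under 0.05 with all 6 libraries) and, below each, the value with 1 library left out (coloured by the group and shaped by the replicate left out). Without saline replicate 3 the values of *Hes1*, *Sox9* and *Sox2* move from -1.61, -1.46 and -1.22 to -0.58, -0.88 and -0.91, while those of *Pax6*, *Six3* and *Sox8* move little.

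The other genes of the Notch pathway were examined as 33 genes, *Hes1* included: ligands, receptors, the enzymes that cleave and glycosylate the receptors, the nuclear complex, and targets. All 33 were tested, 8 with a higher and 25 with a lower estimate, and the median log2 fold change was -0.26 against -0.03 for all genes. Of them, 4 fell and 1 rose past the threshold, together 15.2% of the list, a share near the 12.8% of all genes tested. *Hes5*, the other main Notch target in neural progenitors, measured 9.96, 7.88 and 21.9 CPM in saline and 5.30, 2.24 and 5.13 CPM in microbead retina (log2 fold change -1.64, adjusted p = 0.0442 from edgeR). As for *Hes1*, saline replicate 3 was the highest, and without it the log2 fold change of *Hes5* was -1.07. Of the receptors, *Notch3* fell (-1.02, adjusted p = 0.0477 from edgeR) and *Notch2* fell (-0.81, adjusted p = 0.0376 from edgeR), while *Notch1* had -0.47 and *Notch4* 0.12, neither past the threshold. *Rfng*, a fringe glycosyltransferase that tunes receptor binding, rose from 47.9, 43.3 and 41.8 CPM to 79.2, 74.5 and 96.5 CPM (log2 fold change 0.91, adjusted p = 0.0160 from edgeR). *Aph1a*, a subunit of the gamma-secretase that releases the receptor's intracellular part, fell (-0.70, adjusted p = 0.0345 from edgeR). Of the 5 ligands, *Dll3* had an estimate of 0.74 and *Dll1*, *Dll4*, *Jag1* and *Jag2* had estimates from -0.71 to -0.13, and *Rbpj*, the DNA-binding partner of the receptor, had -0.12, and none of these passed. With 1 library left out, *Rfng* passed in 4 of 6 fits, *Notch2* in 2, *Notch3* and *Hes5* in 1 each and *Aph1a* in 0.

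Other eye field and progenitor factors are described only in part. Of the 20 tested here 2 passed, both lower, a share of 10% against 12.8% of all genes tested, with a median of -0.29, and these values cover only the genes kept. *Sox4*, a SOXC factor, fell from 9.70, 12.6 and 15.9 CPM to 3.71, 5.99 and 5.59 CPM (-1.33, adjusted p = 0.0235 from edgeR), and *Nfib*, a nuclear factor I gene of late progenitors and glia, fell (-0.91, adjusted p = 0.0258 from edgeR). With 1 library left out, *Sox4* and *Nfib* passed in 2 of 6 fits each. *Otx2*, a homeobox gene of photoreceptors and bipolar cells, had -0.0005, not past the threshold. *Id3*, an inhibitor of basic helix-loop-helix factors, measured 16.3, 16.2 and 98.7 CPM in saline and 11.4, 7.58 and 8.77 CPM in microbead retina (-2.24, adjusted p = 0.0517 from edgeR). *Id1*, *Id2* and *Zfp36l1* had the same saline replicate 3 above all other libraries, at 41.0, 53.2 and 63.3 CPM; these 4 genes are named because of that value.

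Of 20 close relatives of the 8 genes, 14 were tested, and *Hes5* was the only one past the threshold, 7.14% of them against 12.8% of all genes tested. *Six6*, the nearest relative of *Six3* in the retina, had 53.8, 77.9 and 98.0 CPM in saline and 99.3, 67.7 and 56.4 CPM in microbead retina, with overlap (-0.04). *Sox1*, *Sox3*, *Sox14*, *Sox21*, *Pax4* and *Hes3* did not reach the filter. The median of the 14 was 0.03.

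Levels can be compared between genes only per length, and per kilobase of the union of exons the saline order was *Six3* (28.5 ± 1.37 CPM per kb), *Hes1* (25.8 ± 22.9), *Pax6* (25.4 ± 3.93), *Sox2* (24.03 ± 8.10), *Sox9* (16.4 ± 9.88), *Rax* (13.9 ± 2.76), *Lhx2* (13.3 ± 3.44) and *Sox8* (12.4 ± 1.74, SD, n = 3). Each neighbour in that order overlaps the next. In microbead retina the levels separate into a high pair, *Pax6* (37.9 ± 3.18 CPM per kb) and *Six3* (36.6 ± 2.57), and the other 6, from *Lhx2* (12.8 ± 1.25) and *Sox2* (10.3 ± 0.282) down to *Hes1* (8.44 ± 1.91), *Sox8* (7.82 ± 0.749), *Rax* (7.34 ± 2.37) and *Sox9* (5.93 ± 0.821). *Six3* lies above *Lhx2* and *Lhx2* above *Sox2* in every microbead library, while *Pax6* and *Six3* overlap, as do the neighbours from *Sox2* downward. The order depends on the length used: by the longest transcript, *Pax6* was first in saline with 67.0 ± 10.4 CPM per kb, and 1 of the 8 kept its place. In microbead retina 5 of the 8 kept theirs, and by that length *Pax6* (100.2 ± 8.40 CPM per kb) lay above *Six3* (54.2 ± 3.80) with no overlap.

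A ratio of counts inside a library does not depend on library scaling, and these ratios were chosen after the values had been seen, so they are given without a test. *Pax6* counts per *Sox2* count were 5.92, 8.62 and 4.58 in saline and 20.3, 22.4 and 20.0 in microbead retina. Per *Sox9* count they were 4.31, 9.94 and 2.79 and then 19.0, 17.1 and 18.4. The microbead libraries are close to one another in both ratios and all lie above the saline libraries. That separation follows from the levels above and adds nothing to them, since *Pax6* was higher and *Sox2* and *Sox9* lower in every microbead library. *Sox2* counts per *Sox9* count were 0.729, 1.153 and 0.608 in saline and 0.935, 0.766 and 0.921 in microbead retina, and *Hes1* counts per *Sox9* count 0.467, 0.745 and 0.942 and then 0.979, 0.560 and 0.610, both with overlap. The same ratio of *Pax6* to *Six3* was 1.67, 2.08 and 1.97 in saline and 2.08, 2.29 and 2.30 in microbead retina, which touch without overlapping.

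The summed level of 12 Müller glia markers, of which glutamine synthetase (*Glul*) was the most abundant and none was at 0, was 7821, 7214 and 10900 CPM in saline and 7015, 6969 and 5659 CPM in microbead retina (log2 ratio of means -0.40). A two-sided exact permutation test gave p = 0.1, the smallest that 3 against 3 can give, and 0.4 after adjustment over the 12 marker lists summed this way. Of the 12, 3 fell (*Crym*, -1.41; *Dkk3*, -1.03; *Vim*, -0.79) and 0 rose, so that 25.0% of the list passed against 12.8% of all genes tested, and the median was -0.33, while *Glul* (-0.31), *Rlbp1* (-0.16) and *Slc1a3* (-0.12) did not pass. With 1 library left out, *Crym* passed in 3 of 6 fits, *Dkk3* in 2 and *Vim* in 0, and *Crym* was at -0.82 without saline replicate 1. Relative to 1000 CPM of these markers, *Sox2* measured 5.28, 5.32 and 6.29 CPM in saline and 2.94, 3.12 and 3.77 CPM in microbead retina, without overlap. *Sox9* measured 7.24, 4.62 and 10.4 CPM and then 3.14, 4.07 and 4.09 CPM on that scale, also without overlap. *Sox8* (5.32, 4.48 and 3.83 against 3.12, 3.80 and 4.37 CPM) and *Rax* (12.7, 10.6 and 6.30 against 7.74, 3.95 and 8.29 CPM) overlapped, and so did *Lhx2*. *Hes1* was lower without overlap (3.38, 3.44 and 9.74 against 3.07, 2.28 and 2.49 CPM), and *Pax6* and *Six3* were higher without overlap. The markers themselves were uneven between saline libraries, with *Clu* at 2010, 693 and 1148 CPM. The part that the Müller glia share of the RNA has in the fall of the SOX factors was not tested further.

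**Figure D3:**
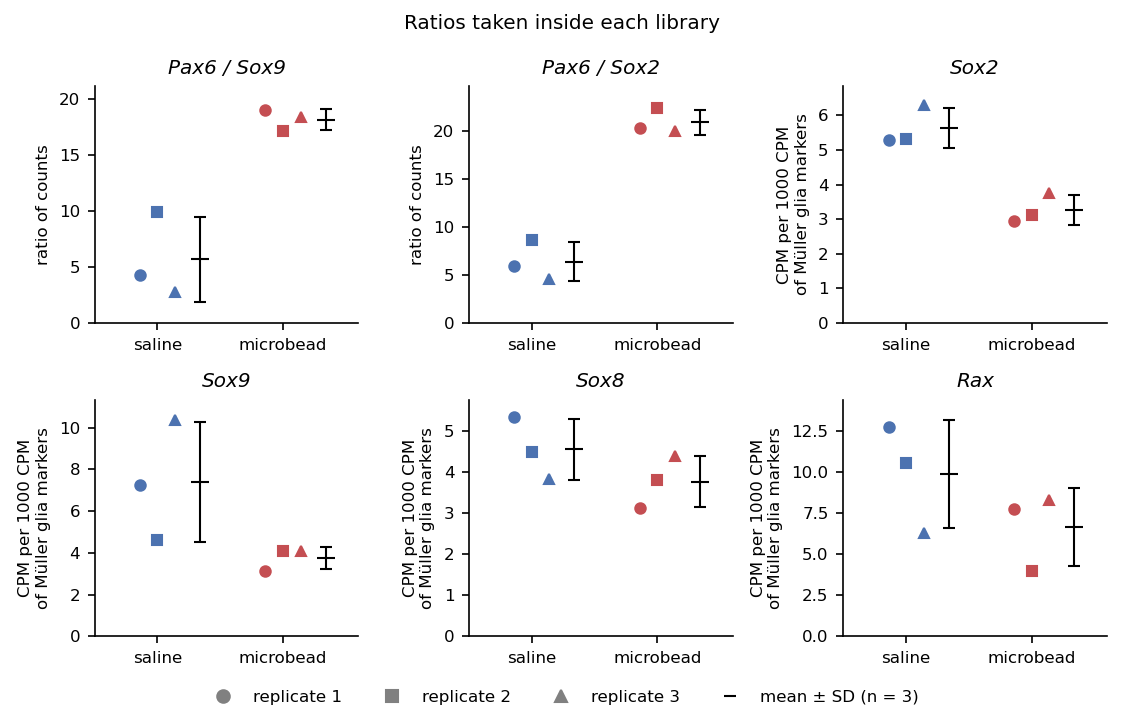
Ratios taken inside each library, in the 3 saline and 3 microbead libraries (linear axes from 0, bars for the mean ± SD, n = 3): *Pax6* counts per *Sox9* and per *Sox2* count, and the CPM of 4 factors per 1000 CPM of 12 Müller glia markers. The microbead libraries lie at 17.1 to 19.0 and 20.0 to 22.4 in the first 2 panels, above all saline libraries, as follows from the levels of the single genes. *Sox8* and *Rax* overlap between groups.

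Markers of other cells that express these factors are given beside them. The 12 amacrine markers summed to 853, 1463 and 1752 CPM in saline and 1337, 1114 and 1328 CPM in microbead retina (log2 ratio -0.11, exact permutation p = 0.8), *Calb2* being the most abundant and *Ptf1a* near 0. The log2 ratio was 0.12 without saline replicate 3 and -0.35 without saline replicate 1. Of the 11 tested 0 passed, 4 having a higher and 7 a lower estimate with a median of -0.25 (*Gad1*, -0.78; *Slc32a1*, -0.68; *Calb2*, 0.44). Without saline replicate 1, 3 amacrine markers passed, with 15.1% of all genes tested. The 10 ganglion cell markers summed to 849.1 ± 471.6 and 997.2 ± 147.7 CPM (p = 0.8 by the exact permutation test), and 0 passed, 6 having a higher and 4 a lower estimate with a median of 0.16 (*Sncg*, 1.33; *Rbpms*, 0.71; *Nefl*, -0.46). The log2 ratio of this sum was 0.23, with -0.15 without saline replicate 1 and 0.62 without saline replicate 3. In the fit without saline replicate 1, 2 ganglion cell markers passed, with 15.1% of all genes tested. The 5 horizontal cell markers summed to 341.0 ± 36.7 and 250.6 ± 35.1 CPM (exact permutation p = 0.1), and all 5 had a lower estimate, with a median of -0.97, of which *Onecut2* fell (-1.36), 20% of the list against 12.8% of all genes tested. The summed amacrine and ganglion cell markers overlap between the groups. Horizontal cell sums did not overlap and were lower after microbead injection: 298.7, 364.5 and 359.8 CPM in saline and 246.6, 287.5 and 217.7 CPM in microbead retina. The part of amacrine, ganglion and horizontal cells in the *Pax6* and *Six3* values was not tested.

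Of 10 bipolar markers *Bhlhe23* fell (-0.75), of 10 rod markers *Nrl* fell (-0.97) and *Pdc* rose (1.01), and of 8 cone markers *Arr3* rose (1.44). These are 10%, 20% and 12.5% of the lists against 12.8% of all genes tested, and the medians were 0.07, -0.19 and 0.06. The summed levels of the bipolar, rod and cone markers had log2 ratios of 0.01, -0.11 and 0.14, with overlap between the groups. Of 8 endothelial markers, 1 with a higher and 7 with a lower estimate, 3 fell (*Esam*, -1.01; *Cldn5*, -0.94; *Flt1*, -0.93), which is 37.5% of the list against 12.8% of all genes tested. The sum of the 8 was 530.0 ± 111.0 and 341.0 ± 80.6 CPM (exact permutation p = 0.1). Of 5 astrocyte markers, 3 with a higher and 2 with a lower estimate and a median of 0.31, *Aldh1l1* fell (-1.23), 20.0% of the list against 12.8% of all genes tested, and the log2 ratio of the sum was -0.06. Of 9 microglia markers 0 passed, 4 having a higher and 5 a lower estimate with a median of -0.50 (*Tmem119*, -1.32; *Cx3cr1*, -1.32; *Cd68*, 1.18). They summed to 106.7 ± 70.1 and 85.6 ± 32.5 CPM (log2 ratio -0.32, exact permutation p = 0.8), a ratio that turned to 0.36 without saline replicate 1. Of 9 pigment epithelium markers 0 passed, 5 having a higher and 4 a lower estimate with a median of 0.18 (*Pmel*, 0.94, and *Dct*, 0.79). Close to the floor, *Mlana* had 1.58 and *Slc45a2* -1.12, at means of 0.308 and 0.333 CPM. Without saline replicate 3, 2 pigment epithelium markers passed, with 8.42% of all genes tested. Of 6 lens genes with counts 3 reached the filter on low counts, which a gene could do through the saline group alone, so no call is given for them. *Crybb1* had 83, 42 and 347 counts in saline and 4, 1 and 5 counts in microbead retina, and *Cryaa*, the most abundant, had 15.5, 0.270 and 210.5 CPM in the saline libraries and at most 0.144 CPM in a microbead library. Each call named here for a cell type marker was lost in at least 1 of the 6 fits with a library left out. Calls were also gained: 1 microglia marker passed without saline replicate 1, 3 with DESeq2 and 4 with no filter on low counts. The shares of all genes in these fits were 15.1%, 11.4% and 11.9%. That of DESeq2 is over all 31169 genes of the count table, before DESeq2's own filter on low counts.

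The gliosis genes, 15 genes of the response of the retina to injury, had a median of -0.68, with 2 genes with a higher and 13 with a lower estimate. Past the threshold were 0 higher and 2 lower, 13.3% of the list, a share near the 12.8% of all genes tested. *Socs3*, an inhibitor of cytokine signalling, measured 28.3, 6.70 and 228.1 CPM in saline and 6.69, 8.16 and 5.52 CPM in microbead retina (log2 fold change -3.69, adjusted p = 0.0464 from edgeR), with overlap, and without saline replicate 3 the log2 fold change was -1.36 (adjusted p = 0.101 from edgeR). *Cebpd* fell from 111.8, 15.4 and 74.9 CPM to 13.95, 8.95 and 11.6 CPM (-2.54, adjusted p = 0.0253 from edgeR). With 1 library left out, *Socs3* passed in 2 of 6 fits and *Cebpd* in 3. *Gfap*, the intermediate filament of reactive glia, was at 49.9, 27.5 and 37.8 CPM and 42.9, 55.5 and 44.6 CPM (0.31, not past the threshold). In saline replicate 3, *Socs3* and *Hes1* stand at their highest, and in saline replicate 1 *Serpina3n* (239.9 CPM) and *C4b* (283.7 CPM) do.

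**Figure D4:**
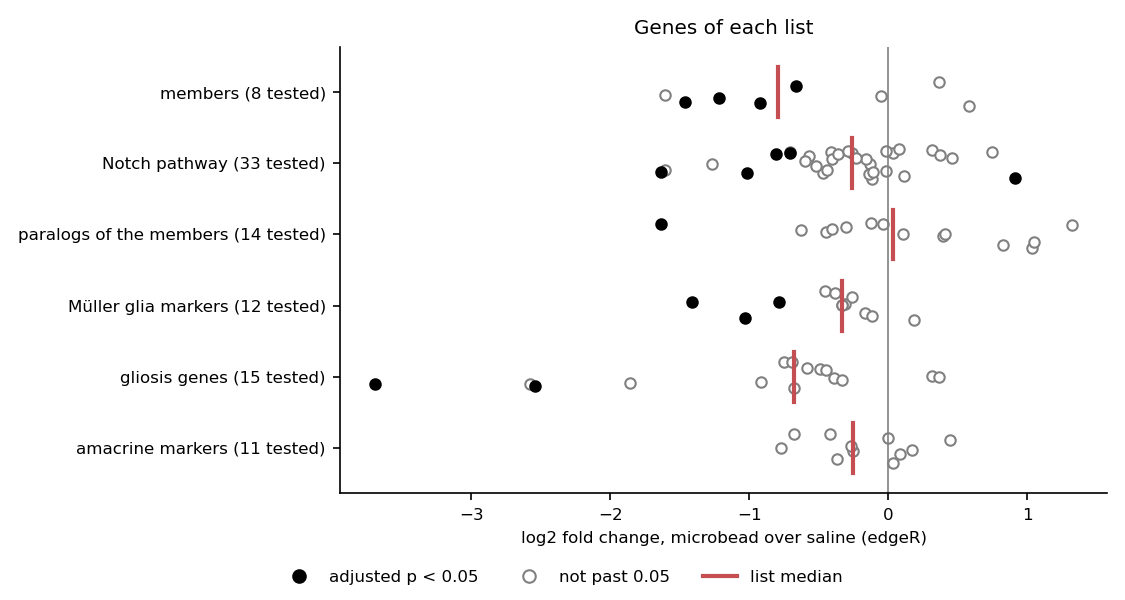
Log2 fold change of microbead over saline retina from edgeR for each tested gene of 6 lists, filled where the adjusted p-value was under 0.05, with a red line at the median of the list (vertical scatter has no meaning). The 8 factors have a median of -0.79 and 4 filled points, and the amacrine markers have 0 filled points.

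Several of the 8 genes overlap RNAs of the opposite strand. The libraries were made with a stranded kit, but whether reads were counted by strand is not given in the sources used here, so reads of a gene and of its antisense partner may not have been told apart. *Rax* lies on chromosome 18 from 65928277 to 65939787 on the reverse strand and shares 1604 exon bases with *Raxos1*, which measured 15.9, 12.7 and 10.4 CPM in saline and 17.9, 20.0 and 22.3 CPM in microbead retina (log2 fold change 0.63, adjusted p = 0.0881 from edgeR). *Rax* and *Raxos1* thus had estimates of opposite sign, and the *Raxos1* counts amounted to 16.0% of the *Rax* counts in saline and 44.8% in microbead retina. *Sox2* lies inside *Sox2ot*, a long noncoding RNA of the same strand with which it shares 0 exon bases, and *Sox2ot* measured 7.20, 7.34 and 8.36 CPM in saline and 11.3, 12.5 and 9.42 CPM in microbead retina (0.54, adjusted p = 0.142 from edgeR). *Six3os1*, with 106 shared exon bases, had 0.30, *2810468N07Rik*, with 329 bases shared with *Sox8*, had 0.36, and *Pax6os1*, with 0 shared with *Pax6*, had -0.66, none past the threshold. The remaining neighbours that were tested, *Elp4* beside *Pax6* (-0.56), *BC006965* beside *Sox9* (0.32) and *Gm28528* across *Six3* (0.22), did not pass either.

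For each factor, the gene with the most similar pattern over the 6 libraries was found by Pearson's r of log2 CPM among the 11841 genes with a mean of at least 5 CPM. It was *Spon1* for *Sox2* (r = 0.999), *Ddr1* for *Sox8* (0.994), *Hira* for *Rax* (0.994), *Id3* for *Hes1* (0.993), *Parp8* for *Pax6* (0.990), *Cdc26* for *Six3* (0.990), *Tshr* for *Sox9* (0.990) and *Ciart* for *Lhx2* (0.989). The number of genes with r above 0.95 ranged from 9 for *Lhx2* to 238 for *Sox2*. The libraries share their group and depth, so the values describe likeness only.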

How the data were processed

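Whole-retina RNA of 3 saline and 3 microbead mice was compared. The authors aligned the reads with STAR 2.5.3a to GRCm38 with GENCODE vM12 and deposited featureCounts counts per gene, not normalized. The deposited table also holds the authors' DESeq2 comparison (mean normalized signal, log2 fold change, linear fold change or ratio, p-values and a column of calls), which was not used. Titles with separate animal tags mark the replicates; p-values measure only the spread between these samples.

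Low counts were removed by filterByExpr (at least 10 counts, 15 in total), and libraries were scaled by TMM and compared with edgeR 4.0.16 (quasi-likelihood test, two-sided, Benjamini-Hochberg over 17707 genes, threshold 0.05, R 4.3.3). CPM are counts per 1000000 of the scaled library size. Marker sums were compared by exact permutation. Positions and lengths come from GENCODE vM21, which holds 99.5% of the genes, and promoter windows from RefSeq. The steps were tested on simulated data.

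The 8 genes, the gene lists and the motifs were chosen with earlier results of these data known. Some genes of the list of other eye field and progenitor factors, with the results that need them, were left out and are not reported here. Named from each list are the genes past the threshold, at most the 4 with the largest change at a mean of at least 1 CPM, or the 2 largest where none passed. *Aph1a*, *Glul* and other list members outside it were picked with their values in view. Alternatives were other scalings, library sizes without mitochondrial genes, no or stricter count filters, DESeq2 1.42.0, limma-voom 3.58.1, thinning to the smallest total, an offset for GC content and length, the replicate number as a block, a threshold of 0.01 and each library left out in turn. No library copied another: within a group, chi-square per degree of freedom between libraries was at least 20.1.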

Additional observations from a re-analysis of the deposited data

How the results depend on the processing

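With all 6 libraries, *Sox2* passed the threshold under 11 of 11 alternatives of the fit, *Sox9* under 8, *Sox8* under 6, *Rax* under 5, *Pax6* under 3, *Hes1* under 1 (no filter on low counts) and *Six3* and *Lhx2* under 0. Of the 8 factors, 2 passed with upper-quartile scaling, 2 with limma-voom and 0 at an adjusted p-value under 0.01, against 4 in the fit reported, and leaving out 1 library gave 0 to 3. The share of all genes tested was 12.5% with upper-quartile scaling and 12.5% with limma-voom, against 12.8% in the fit reported. Of all genes, 3720 passed with no filter on low counts (1511 higher and 2209 lower, against 1143 and 1118), 3556 with DESeq2 and 87 under 0.01, and leaving out 1 library gave 46 to 2621 (0.238 to 15.1% of those tested). Signs held for 7 of the 8 under every alternative run. *Lhx2* turned to 0.0172 with thinning and ran from -0.20 to 0.17 with 1 library left out. The causes were not tested.

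Samples with the same replicate number did not deviate together (correlations of -0.01, 0.14 and -0.01), so the numbers only name samples. With the replicate block, 1 of the 8 factors (*Sox2*) and 905 of all genes (5.11%) passed. With the replicate block and the offset for GC content and length, 2 of the 8 (*Sox2* and *Pax6*) and 1083 of all genes (6.14%) passed, and *Lhx2* was at 0.0007. The log2 ratio of the Müller glia sum moved by less than the spread between replicates under each scaling and each library left out. It was -0.40 with all libraries and -0.20 without saline replicate 3.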
